A study of Mus musculus with 8 samples.

Results

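Atf4 and 9 genes that are commonly placed downstream of it in the integrated stress response and in amino acid supply were followed in sorted mouse prostate epithelium. The genes were Atf4, Ddit3, Trib3, Chac1, Asns, Psat1, Phgdh, Shmt2, Slc7a11 and Slc3a2. They were chosen by name and found through their Ensembl identifiers. The 10 symbols matched 11 of the 55335 identifiers in the tables, because Ddit3 has a second identifier that overlaps the first on the same strand of chromosome 10. Of these 11 identifiers, 9 reached 1 FPKM (fragments scaled by gene length and library size) in at least 2 libraries and were tested. The other 2, Slc7a11 and the second Ddit3 identifier, stayed under that level and are described by their values alone.

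The integrated stress response begins with kinases that phosphorylate the translation initiation factor eIF2alpha. Each senses another kind of stress: unfolded protein in the endoplasmic reticulum, lack of amino acids, double-stranded RNA or lack of heme. Most protein synthesis then slows, while the mRNA of Atf4 is translated more, so the Atf4 protein can change without its mRNA. Atf4, a basic leucine zipper transcription factor, activates genes for amino acid import, serine and asparagine synthesis and tRNA charging, and also genes that end the response or favour cell death. Only RNA levels were measured here.

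The 8 libraries were 2 each of 4 groups, from mice of the genotypes called PP and PPK in the labels. PPK mice had Kmt2cPC-/- in addition to the engineered background that all groups shared, so the PP controls were not wild type. Kmt2c encodes a histone H3 lysine 4 methyltransferase. Sham mice were 3.5 months old and ADT mice 6.5 months old, so the effects of ADT and of age cannot be told apart. ADT is the usual short form of androgen deprivation therapy. The labels say neither how it was done nor what the suffix PC stands for, and they do not say whether libraries A and B of a group came from separate animals. The p-values below therefore measure only the spread between these libraries. The cells were sorted as EpCAM-positive, CD24a-positive and CD49f-low, per the series' design text.

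Summed FPKM per library ran from 284015 to 333977, and no 2 libraries held identical values. Kmt2c was 13.2 and 13.9 FPKM in PP sham against 8.67 and 8.15 in PPK sham, and 10.3 and 9.33 in PP ADT against 6.60 and 6.36 in PPK ADT. PPK libraries were thus lower than PP libraries in both settings, and still held Kmt2c RNA, of which the tables do not show the exons. The 5 epithelial markers were at 1 FPKM or more in every group, and their sum was 1652 and 1694 FPKM in PPK ADT against 3387 to 4825 FPKM elsewhere. All 5 were called lower in PPK ADT than in PP ADT, with a median of -0.60, where 27.1% of all tested genes were called lower. The 4 basal markers summed to between 60.4 and 147.6 FPKM in the other groups and to 4803 and 4842 FPKM in PPK ADT. Most of that sum was Krt5 and Krt14. Against PP ADT 3 of the 4 were called higher, where 32.5% of all tested genes were. Itga6 did not pass (33.9 and 34.4 against 34.2 and 32.6 FPKM). Itga6 encodes CD49f and Epcam encodes EpCAM, and the cells were sorted on both proteins. The levels of these markers are therefore not independent of the sort. In PPK ADT Krt5 stood at 3242 and 3243 FPKM, while Krt8, a luminal keratin, stood at 294 and 286 FPKM against at least 1263 elsewhere. Summed macrophage and monocyte markers ran from 45.3 to 130.8 FPKM and were lowest in PPK ADT, but the 3 tested members differed in direction there. Against PP ADT, Cd14 was lower (16.4 and 13.6 against 96.2 and 101.4 FPKM), Lyz2 was higher (12.3 and 11.3 against 7.26 and 7.86 FPKM), and Cd68 did not pass. Summed fibroblast markers were highest there, at 28.8 and 29.99 FPKM, against 4.54 to 17.7 FPKM elsewhere. Neutrophil markers summed to 11.6 and 11.9 FPKM in PPK ADT against at most 5.31 elsewhere, with Mpo and Elane at 0 there. Nearly all of that sum was S100a9 and S100a8. Csf3r, which was under the filter, was 0.217 and 0.149 FPKM in PPK ADT against 0.493 and 0.843 in PP ADT. Smooth muscle markers summed to 8.04 and 8.73 FPKM in PPK ADT against at most 4.12 elsewhere. Summed endothelial markers ran from 0.523 to 3.98 FPKM, and summed lymphocyte markers never exceeded 0.728 FPKM. The part of these markers in the PPK ADT results below was not tested. In bulk RNA, fewer cells of a type and less RNA per cell cannot be told apart.

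Stretches of promoter that carry the core of the C/EBP-ATF response element are shown first, since this element is the binding motif through which Atf4 and its partners are best known to act. Promoters came from RefSeq on GRCm38.p6 and ran from 250 bases before to 50 bases after each start, 300 bases in all. All 10 genes had one. The motif searched was TGATGNAA, on both strands, so that its reverse complement TTNCATCA also counts. Capitals mark the motif, and each sequence is written 5′ to 3′ on the strand of its gene. Chac1 (chr2:119351028-119351077, plus strand, motif at positions -193 to -186 from the start) and Slc7a11 (chr3:50443638-50443694, minus strand, 2 motifs at -66 to -59 and -47 to -40) carried it upstream. In Asns it lay at -23 to -16 (chr6:7693214-7693243, minus strand), which is inside the first exon of the GENCODE annotation. Atf3 (chr1:191183415-191183464, minus strand, -110 to -103) and Herpud1 (chr8:94386296-94386345, plus strand, -112 to -105) are shown from the companion lists below for comparison.
Chac1: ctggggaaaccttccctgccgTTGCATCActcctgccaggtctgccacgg
Slc7a11: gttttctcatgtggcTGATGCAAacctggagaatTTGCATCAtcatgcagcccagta
Asns: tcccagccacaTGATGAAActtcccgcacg
Atf3: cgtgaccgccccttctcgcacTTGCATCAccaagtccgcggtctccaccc
Herpud1: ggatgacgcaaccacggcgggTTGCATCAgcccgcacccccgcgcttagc

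Trib3 held the motif after its start, at positions 15 to 22, so 4 of the 10 genes had it within the 300 bases. Among all genes with a promoter 1219 of 27025 held it in at least 1 promoter, or 4.51%. Counted by promoter it was 1304 of 32851, or 3.97%. The longer form TGATGCAAT and the cAMP response element TGACGTCA were in none of the 10, against 0.222% and 2.03% of all genes. TGATGCAAT contains TGATGNAA, so both counts overlap. A match describes these letters in this window and is not a measured binding site. The companion lists are counted by genes with a promoter. The motif was in 5 of 12 cytosolic aminoacyl-tRNA synthetases (Aars, Gars, Iars, Tars and Yars) and in 4 of 17 other stress effectors (Atf3, Nupr1, Vldlr and Fgf21). It was in 2 of 15 for serine and one-carbon synthesis, 2 of 14 for amino acid transporters and 1 of 13 for the Atf6 and Xbp1 arms. It was in none of the 10 genes with a promoter among eIF2alpha kinases, eIF2 factors and phosphatase subunits and in none of the 5 for Nrf2 genes.

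Across the groups the 10 genes fell into several patterns. Atf4, Ddit3, Trib3, Chac1 and Slc3a2 had their lowest mean level in PPK ADT. Psat1 and Shmt2 had their highest mean level in that same group. Asns, Phgdh, Psat1 and Shmt2 had their lowest mean level in PP ADT. PP sham held the highest mean of Ddit3, Trib3, Chac1, Asns, Phgdh, Slc7a11 and Slc3a2. Some of these ranks rest on groups whose libraries overlapped. Those of PP ADT and PP sham overlapped for Psat1, Shmt2, Trib3 and Slc3a2, and those of PP ADT and PPK ADT for Ddit3.

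**Figure D1:**
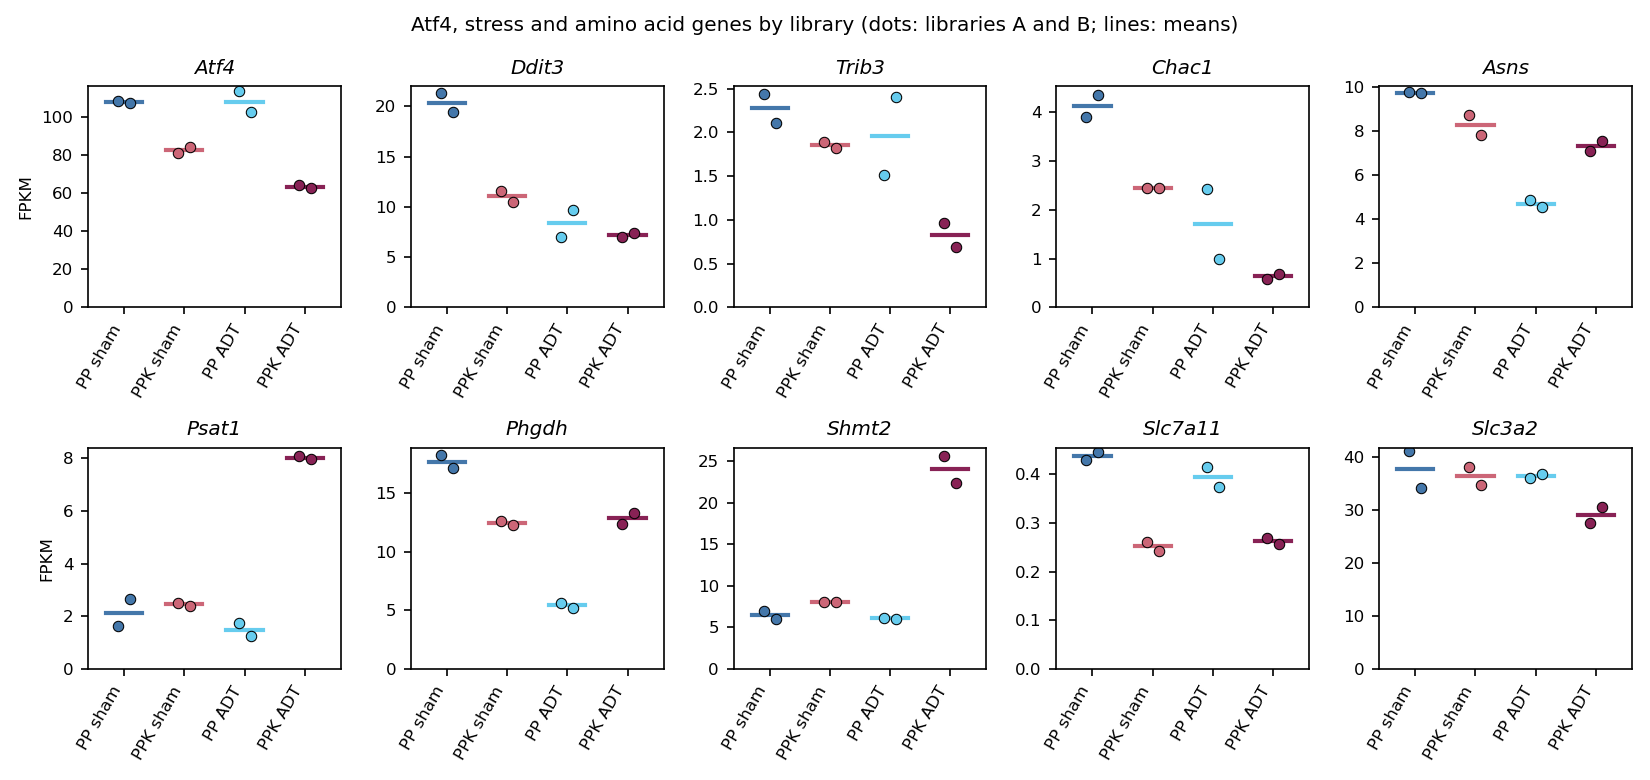
FPKM of the 10 genes (1 panel each, y axis from 0) in the 4 groups, with dots for libraries A and B and a line for their mean. Psat1 and Shmt2 stand highest in PPK ADT, at about 8 and at 22 to 26 FPKM, while Atf4 stands lowest there, at 63 to 64 FPKM.

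The first question of the design is what loss of Kmt2c adds to the PP background in sham mice. Differences were fitted with limma on log2(FPKM + 1), which understates changes of low genes, and were called at a Benjamini-Hochberg adjusted p under 0.05 over 14000 genes. In PPK sham 3 of the 9 tested genes fell, Atf4, Ddit3 and Phgdh, and none rose. At an unadjusted p under 0.05 from limma 1 was higher, Shmt2, which passed without PPK ADT A or B. Of all tested genes 28.6% were called either way in this comparison, 13.7% higher and 14.9% lower. The median log2 fold change of the 9 was -0.21, against -0.02 over all tested genes. The count of all genes called lower, 2080, was 1276 without PP sham A and 1293 without PP sham B.

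In ADT mice the same genotypes differed in 8 of the 9 genes. The 4 that rose in PPK ADT were Asns, Psat1, Phgdh and Shmt2, which make amino acids or one-carbon units. The 4 that fell were Atf4, Trib3, Chac1 and Slc3a2. The called share of all tested genes was 59.6% here, with 32.5% higher and 27.1% lower, and the median of the 9 was -0.18 against 0.05 over all genes. The 4 falls were 2 without PPK ADT A, where Chac1 and Slc3a2 were lost, and 2 without PPK ADT B, where Trib3 and Chac1 were lost. The count was 3 without any 1 of the other libraries.

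Against sham, ADT with age left no tested gene of the 10 higher in PP mice and lowered 4: Ddit3, Chac1, Asns and Phgdh. At an unadjusted p under 0.05 from limma, 0 were higher. The called share of all genes was 44.2%, with 19.1% higher and 25.1% lower, and the medians were -0.32 for the 9 and -0.07 for all. In PPK mice 2 genes rose, Psat1 and Shmt2, and 5 fell, Atf4, Ddit3, Trib3, Chac1 and Slc3a2. The called share of all genes was 62.6%, with 31.9% higher and 30.7% lower, and the median of the 9 was again -0.32, against 0.00 for all. The 5 falls were 2 without PPK sham A and 3 without PPK ADT A. These comparisons share libraries with the genotype comparisons, so their calls are not independent of each other.

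The difference of genotype effects, ADT minus sham, asks whether PPK and PP differed by another amount in ADT mice than in sham mice. It passed for 6 of the 9 genes, positive for Ddit3, Asns, Psat1, Phgdh and Shmt2 and negative for Atf4. Of all tested genes 52.8% passed here, 30.0% positive and 22.8% negative. The median difference of the 9 was 0.65, against 0.09 over all genes. The 1 negative call became 2 when PP sham A, PP ADT A or PP ADT B was left out, through Slc3a2, Trib3 and Chac1 in turn.

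**Figure D2:**
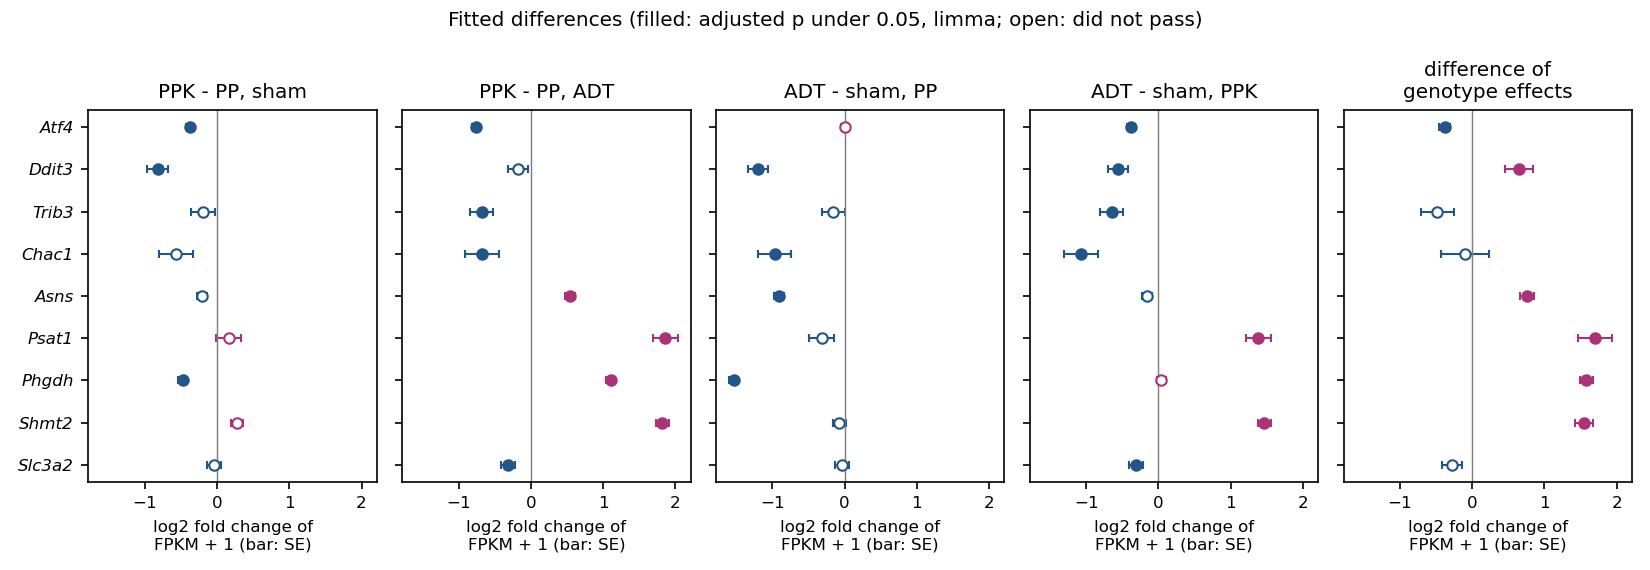
Log2 fold change of FPKM + 1 with its standard error for the 9 tested genes (rows) in the 4 pairwise comparisons and the difference of genotype effects (panels). Filled points passed at an adjusted p under 0.05. Psat1, Phgdh and Shmt2 lie above 1 in PPK against PP in ADT mice, while Atf4 lies at -0.76.

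Atf4 is on chromosome 15 (80255184 to 80257541, GRCm38, plus strand). It was abundant in every library: 108.5 and 107.2 FPKM in PP sham, 80.95 and 84.55 in PPK sham, 113.8 and 102.5 in PP ADT, and 64.2 and 62.8 in PPK ADT. Both PPK groups lay below both PP groups with no overlap, and PPK ADT lay below PPK sham. Means were 107.8 ± 0.898 and 82.8 ± 2.55 FPKM in PP and PPK sham, and 108.2 ± 7.997 and 63.5 ± 1.04 in PP and PPK ADT (SD, n = 2). Atf4 RNA fell in PPK by 0.38 on the log2 scale in sham mice (SE 0.052, adjusted p = 0.00249, limma). In ADT mice it fell by 0.76 (adjusted p = 3.03e-05). The 2 effects differed by -0.38 ± 0.074 (SE, adjusted p = 0.00528). ADT with age changed Atf4 by 0.00 in PP (adjusted p = 0.972), a value whose sign turned under quantile normalization, and it fell by 0.38 in PPK (adjusted p = 0.00083). The highest group mean was 1.70 times the lowest.

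Ddit3, which encodes the transcription factor CHOP, is tied to cell death under lasting endoplasmic reticulum stress. Its main identifier (chromosome 10, 127290774 to 127296288, plus strand) had 21.3 and 19.4 FPKM in PP sham, 11.6 and 10.5 in PPK sham, 6.97 and 9.73 in PP ADT, and 6.97 and 7.38 in PPK ADT. The sham genotypes were apart, and the ADT genotypes overlapped. Ddit3 fell in PPK sham by 0.83 (SE 0.139, adjusted p = 0.00572). In ADT mice the PPK against PP difference was -0.18 (adjusted p = 0.309). Without PP ADT A it was -0.39 (adjusted p = 0.0163), and without PP ADT B it was 0.04 (adjusted p = 0.771). With ADT and age Ddit3 fell in PP by 1.21 (adjusted p = 0.000645). In PPK it fell by 0.56 (adjusted p = 0.012), and that call was lost without PPK sham A (adjusted p = 0.0637) or PPK ADT A (adjusted p = 0.0583). The 2 genotype effects differed by 0.65 ± 0.196 (adjusted p = 0.0311). That call was lost when any one of the sham or PPK ADT libraries was left out, with adjusted p from 0.0508 to 0.0904, and with no filter (adjusted p = 0.0758). The second Ddit3 identifier never exceeded 0.359 FPKM, and fragments the authors' counting gave to it are not in the main values. Mars, on the opposite strand, overlaps the Ddit3 locus.

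Trib3, a pseudokinase that is induced by Atf4 and dampens it, was a low gene. It stood at 2.44 and 2.11 FPKM in PP sham, 1.89 and 1.82 in PPK sham, 1.51 and 2.41 in PP ADT, and 0.970 and 0.693 in PPK ADT. The PPK ADT pair lay below all other libraries, and the PP ADT pair was the widest. Trib3 fell in PPK ADT by 0.68 against PP ADT (SE 0.161, adjusted p = 0.0101) and by 0.65 against PPK sham (adjusted p = 0.0121). With a pseudocount of 0.1 these values were -1.13 and -1.09. Without PPK ADT B both calls were lost (adjusted p = 0.0604 and 0.0699), as was the second without PPK sham A (adjusted p = 0.0526). The remaining differences did not pass: -0.20 in PPK sham against PP sham, -0.16 for ADT with age in PP, and -0.49 for the difference of genotype effects. The last passed without PP ADT A (adjusted p = 0.0238).

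Chac1 degrades glutathione and is among the most inducible targets of the Atf4 and Ddit3 branch. It had the widest span of the 10, with a highest group mean 6.46 times the lowest. Its levels were 3.89 and 4.35 FPKM in PP sham, 2.44 and 2.45 in PPK sham, 2.42 and 0.989 in PP ADT, and 0.583 and 0.692 in PPK ADT. Every group but PP ADT was tight, and PP sham was highest and PPK ADT lowest with no overlap. Chac1 fell from PPK sham to PPK ADT by 1.07 (adjusted p = 0.00685, -1.79 with a pseudocount of 0.1), a call that held under each alternative run. From PP sham to PP ADT it fell by 0.97 (adjusted p = 0.0158). That value was -0.58 without PP ADT B and -1.36 without PP ADT A, and the call was lost without PP sham A (adjusted p = 0.0517), without PP sham B (adjusted p = 0.0751) or with only these 2 groups fitted (adjusted p = 0.0503).

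In ADT mice Chac1 fell in PPK against PP by 0.67 (SE 0.234, adjusted p = 0.0451), a value of -1.17 with a pseudocount of 0.1. This call was lost under 10 of 14 alternatives, among them the replicate block (adjusted p = 0.0578) and each left-out library but PP ADT B. Without PP ADT A the difference was -0.28 (adjusted p = 0.0861), and without PP ADT B it was -1.06 (adjusted p = 0.000773). In sham mice the difference was -0.57 (adjusted p = 0.123), and it passed without PP ADT A (adjusted p = 0.00881), without PP ADT B (adjusted p = 0.00839) and when only the sham groups were fitted (adjusted p = 0.0145). The difference of genotype effects for Chac1 was -0.10 (adjusted p = 0.82). It was 0.29 without PP ADT A and -0.49 without PP ADT B, where it passed (adjusted p = 0.0364).

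Asns makes asparagine from aspartate with nitrogen from glutamine. Its levels were 9.78 and 9.71 FPKM in PP sham, 8.72 and 7.83 in PPK sham, 4.86 and 4.55 in PP ADT, and 7.08 and 7.56 in PPK ADT. PP ADT was apart from the rest and lowest. Asns fell with ADT and age in PP by 0.91 (adjusted p = 9.86e-05), while the change in PPK was -0.16 (adjusted p = 0.0966). It rose in PPK ADT over PP ADT by 0.54 (adjusted p = 0.000635), against -0.21 in sham mice (adjusted p = 0.0667). The 2 genotype effects differed by 0.76 (adjusted p = 0.000896). In ADT mice Asns was thus higher in PPK, while Chac1 and Trib3 were lower. The promoters of all 3 hold the motif, and its part in these differences was not tested.

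Phgdh is the first enzyme of serine synthesis from a glycolytic intermediate (chromosome 3, 98313170 to 98339990, minus strand). It was 18.2 and 17.1 FPKM in PP sham, 12.6 and 12.3 in PPK sham, 5.63 and 5.23 in PP ADT, and 12.4 and 13.3 in PPK ADT. The PPK groups overlapped each other, between the high PP sham and the low PP ADT. Phgdh fell in PPK sham by 0.47 (SE 0.062, adjusted p = 0.00199) and rose in PPK ADT over PP ADT by 1.10 (adjusted p = 1.17e-05). ADT with age lowered it in PP, where it fell by 1.54 (adjusted p = 5.36e-06), and changed it by 0.04 in PPK (adjusted p = 0.599). Its genotype effects differed by 1.58 ± 0.088 (adjusted p = 1.64e-05).

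Psat1, the aminotransferase of the next step, was low outside PPK ADT. It was 1.62 and 2.65 FPKM in PP sham, 2.52 and 2.39 in PPK sham, 1.74 and 1.24 in PP ADT, and 8.06 and 7.95 in PPK ADT. Both PPK ADT libraries lay far above the other libraries, which overlapped. Psat1 rose in PPK ADT by 1.86 ± 0.171 over PP ADT (adjusted p = 0.000123) and by 1.38 over PPK sham (adjusted p = 0.000473). In sham mice the difference was 0.16 (adjusted p = 0.544), and it was -0.08 without PP sham A. ADT with age in PP gave -0.32 (adjusted p = 0.179), which passed at -0.56 without PP sham A (adjusted p = 0.0305). Between sham and ADT mice the genotype effect differed by 1.70 ± 0.24 (adjusted p = 0.0013). The ratio of Phgdh to Psat1 levels went from 11.3 and 6.46 in PP sham to 1.53 and 1.67 in PPK ADT.

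Shmt2, the mitochondrial enzyme that turns serine into glycine and a one-carbon unit, showed a like pattern. It was 6.94 and 6.004 FPKM in PP sham, 8.03 and 8.04 in PPK sham, 6.20 and 5.96 in PP ADT, and 25.7 and 22.4 in PPK ADT. The PPK ADT pair stood apart from the other libraries. Shmt2 rose in PPK ADT by 1.82 ± 0.087 over PP ADT (adjusted p = 5.64e-06) and by 1.47 over PPK sham (adjusted p = 1.36e-05). In sham mice the difference was 0.28 (adjusted p = 0.0591). It passed with a mean of at least 5 FPKM as filter (adjusted p = 0.0472), with quantile normalization (0.0483), with the replicate block (0.039), and without PPK ADT A (0.048) or B (0.0475). ADT with age changed Shmt2 by -0.07 in PP (adjusted p = 0.523). Genotype effects in ADT and sham mice differed by 1.54 (adjusted p = 8.83e-05).

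Shmt1, its cytosolic counterpart, was 10.6 FPKM in both PP sham libraries and 7.09 and 7.06 in PPK ADT. The ratio of Shmt2 to Shmt1 was 0.657 and 0.569 in PP sham, 1.42 and 1.32 in PPK sham, 1.29 and 1.28 in PP ADT, and 3.62 and 3.17 in PPK ADT. The cytosolic form was thus the higher in PP sham and the mitochondrial form in the other 3 groups. Shmt1 fell in PPK sham by 0.75 (adjusted p = 0.000213) and rose in PPK ADT over PP ADT by 0.49 (adjusted p = 0.000391).

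Slc3a2 is the heavy chain that carries several amino acid exchangers to the cell surface, among them Slc7a11 and Slc7a5. Its levels were 41.2 and 34.2 FPKM in PP sham, 38.1 and 34.8 in PPK sham, 36.1 and 36.9 in PP ADT, and 27.6 and 30.6 in PPK ADT. It varied least of the 10, with a highest group mean 1.30 times the lowest, and PPK ADT lay below all other libraries. Slc3a2 fell in PPK ADT by 0.32 against PP ADT (SE 0.096, adjusted p = 0.0263) and by 0.32 against PPK sham (adjusted p = 0.0266). Both calls were lost with no filter (adjusted p = 0.064 and 0.0646) and without PPK ADT A (0.132 in both). The first was also lost without PP ADT A (0.0759) or B (0.0994), and the second without PPK sham A (0.128). The other differences were -0.04 in PPK sham against PP sham and -0.04 for ADT with age in PP, where median-of-ratios scaling turned the sign. The difference of genotype effects was -0.28 (adjusted p = 0.133), which passed without PP sham A (adjusted p = 0.0279).

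Slc7a11, the light chain of the cystine and glutamate exchanger, was under the filter in every library. It was listed at 0.429 and 0.445 FPKM in PP sham, 0.262 and 0.242 in PPK sham, 0.415 and 0.374 in PP ADT, and 0.268 and 0.258 in PPK ADT. The PPK libraries were below the PP libraries in both settings, and no test was made. Slc3a2 was 76.9 to 145.6 times as abundant per length as Slc7a11. Slc7a5, another light chain partner of Slc3a2, was 12.4 to 23.5 FPKM. It fell in PPK sham by 0.47 (adjusted p = 0.00139) and rose with ADT and age in PP by 0.34 (adjusted p = 0.00315) and in PPK by 0.80 (adjusted p = 2.95e-05). In ADT mice the genotype difference was -0.01 (adjusted p = 0.925).

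Companion lists hold further genes of these routes, and their members are counted over the same tests. Of 20 listed genes for serine, glycine, one-carbon and proline synthesis, 18 were tested. Of these, Aldh1l2 passed the filter only through PPK ADT, where it was high, and Pycr1 only through PPK sham. Psph reached 1 FPKM in both libraries of a group only in PPK ADT, where it was high. Counts are therefore given for the other 15. In sham mice 1 was higher in PPK, 2 were lower and 12 did not pass, where 28.6% of all genes were called. In ADT mice 11 were higher, 2 were lower and 2 did not pass, where 32.5% of all genes were called higher and 27.1% lower. The median of the 15 was 0.49 there, against 0.05 over all genes. For ADT with age, 1 rose and 6 fell in PP, while 9 rose and 4 fell in PPK, where 44.2% and 62.6% of all genes were called. The difference of genotype effects passed for 12 of the 15, positive for 11 and negative for 1, and for 52.8% of all genes.

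Aldh1l1, a folate enzyme that releases the one-carbon unit as CO2, was 2.15 and 2.44 FPKM in PP ADT and 16.4 and 15.5 in PPK ADT, a rise of 2.36 ± 0.112 (adjusted p = 5.27e-06). Got2, the mitochondrial aspartate aminotransferase, was 23.3 and 22.6 against 54.8 and 54.3 FPKM, a rise of 1.21 (adjusted p = 8.86e-07). Ass1, which joins aspartate to citrulline, was 6.31 and 6.33 against 26.6 and 27.1 FPKM, a rise of 1.93 (adjusted p = 1.48e-06). All 3 stood out in PPK ADT. Glul, glutamine synthetase, went the other way: it was 222.5 and 215.1 FPKM in PP sham, 87.0 and 85.8 in PPK sham, 100.8 and 105 in PP ADT, and 58.4 and 58.1 in PPK ADT. It fell by 1.33 in PPK sham (adjusted p = 3.3e-06) and by 0.81 in PPK ADT against PP ADT (adjusted p = 2.33e-06).

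Not all folate enzymes followed Shmt2. Mthfd1l, a mitochondrial formate producer, was 1.74 and 1.61 FPKM in PP ADT and 4.92 and 4.64 in PPK ADT, and it rose by 1.11 (adjusted p = 6.42e-05). Psph, the last enzyme of serine synthesis, was 0.764 and 0.990 against 2.20 and 2.38 FPKM and rose by 0.81 (adjusted p = 0.00111). Mthfd2, which acts just after Shmt2 in the mitochondrion and is a widely used Atf4 target, had its highest levels in PP sham, at 2.85 and 2.99 FPKM. It was 1.12 and 1.61 FPKM in PPK ADT, and there it fell by 0.40 from PPK sham (adjusted p = 0.0233) while it rose by 0.44 over PP ADT (adjusted p = 0.0176).

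**Figure D3:**
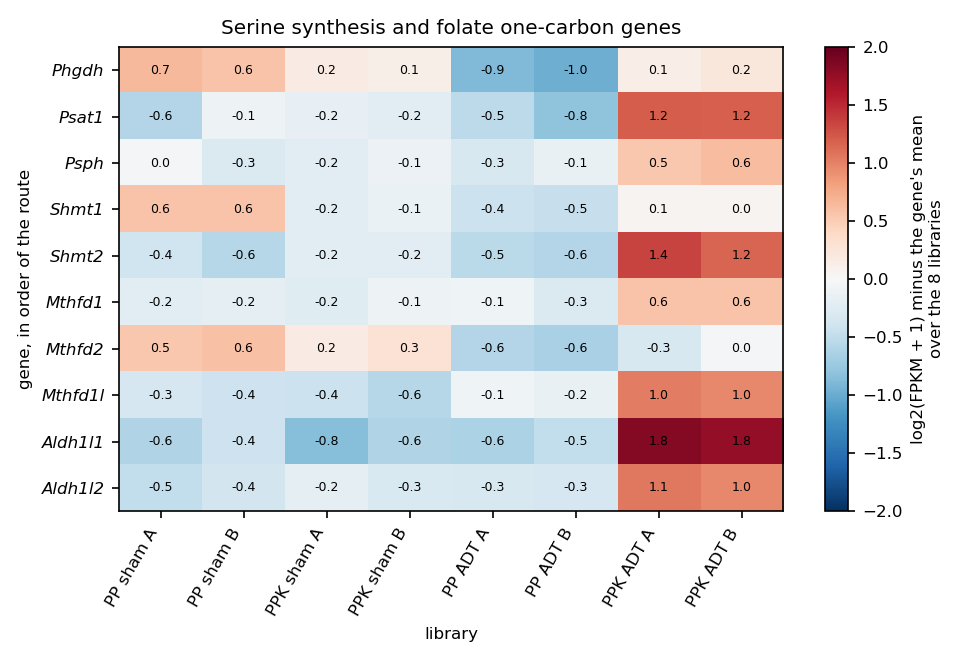
Log2(FPKM + 1) of 10 serine synthesis and folate one-carbon genes (rows) in the 8 libraries (columns), each minus its own mean over the 8. The PPK ADT libraries lie above the mean of Psat1, Shmt2, Mthfd1l and Aldh1l1 by about 1 or more, whereas Phgdh, Mthfd2 and Shmt1 are highest in PP sham. Aldh1l2, also above its mean there, passed the filter only through PPK ADT.

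Upstream of Atf4, the list of eIF2alpha kinases, eIF2 and eIF2B subunits and phosphatase subunits had 14 members, all tested. In sham mice 1 was higher in PPK and 13 did not pass, of which 2 were lower at an unadjusted p under 0.05 from limma. In ADT mice 3 were higher and 3 lower. These are 7.1% and 42.9% of the list, below the 28.6% and 59.6% of all genes called. The kinase of the unfolded protein branch, Eif2ak3, was 72.7 and 69.9 FPKM in PP ADT and 25.3 and 25.8 in PPK ADT, and it fell by 1.45 (adjusted p = 1.01e-06). The double-stranded RNA kinase Eif2ak2 was 30.2 and 30.1 against 14.8 and 14.7 FPKM and fell by 0.98 (adjusted p = 1.92e-06), although it rose by 0.50 in PPK sham (adjusted p = 0.000175). The amino acid sensor Eif2ak4 was between 2.93 and 3.79 FPKM in all 8 libraries and passed in no comparison. Eif2b5, a subunit of the exchange factor that eIF2alpha phosphorylation blocks, rose by 0.78 in PPK ADT over PP ADT (adjusted p = 1.32e-05). Ppp1r15b, a subunit of the phosphatase that reverses the phosphorylation, fell by 0.35 (adjusted p = 0.000438). With ADT and age 2 of the 14 rose and 6 fell in PP, and 3 rose and 4 fell in PPK, where 44.2% and 62.6% of all genes were called.

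Of 20 other stress effectors placed downstream of Atf4, 17 were tested. Vldlr passed the filter only through PPK ADT and Cbs only through PP sham, so counts are given for the other 15. They split in both genotype comparisons, with 5 higher and 4 lower in PPK sham and 7 higher and 7 lower in PPK ADT against PP ADT. Of all genes 28.6% and 59.6% were called there. Atf3, a stress-induced repressor, was among the most abundant, at 1230 and 1241 FPKM in PP sham, 985 and 1006 in PPK sham, 927 and 918 in PP ADT, and 398 and 408 in PPK ADT. It ranked the sham groups and PPK ADT in the order that Atf4 did, but it fell with ADT and age in PP by 0.42 (adjusted p = 1.8e-05), where the value for Atf4 was 0.00. In PPK it fell by 0.31 in sham mice (adjusted p = 0.00016) and by 1.19 in ADT mice (adjusted p = 1.16e-07). Gadd45a, a DNA damage and stress gene, was 70.1 and 72.0 FPKM in PP ADT against 32.8 and 29.2 in PPK ADT and fell by 1.17 (adjusted p = 6.16e-06).

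Sesn2 and Ddit4, both inhibitors of the growth kinase mTORC1, went the opposite way. Sesn2 was 12.9 and 14.1 FPKM in PP ADT and 44.9 and 44.1 in PPK ADT, and it rose by 1.65 (adjusted p = 7.87e-07). Ddit4 was 47.6 and 43.7 against 152.8 and 156.6 FPKM and rose by 1.74 (adjusted p = 3.36e-07). Sesn2 was 11.1 to 14.1 FPKM in the other groups, while Ddit4 was 93.3 and 95.9 FPKM in PP sham and 105.6 in both PPK sham libraries, and fell with ADT and age in PP by 1.04 (adjusted p = 6.48e-06). With ADT and age 7 of the 15 rose and 6 fell in PP, and 5 rose and 7 fell in PPK, where 44.2% and 62.6% of all genes were called.

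**Figure D4:**
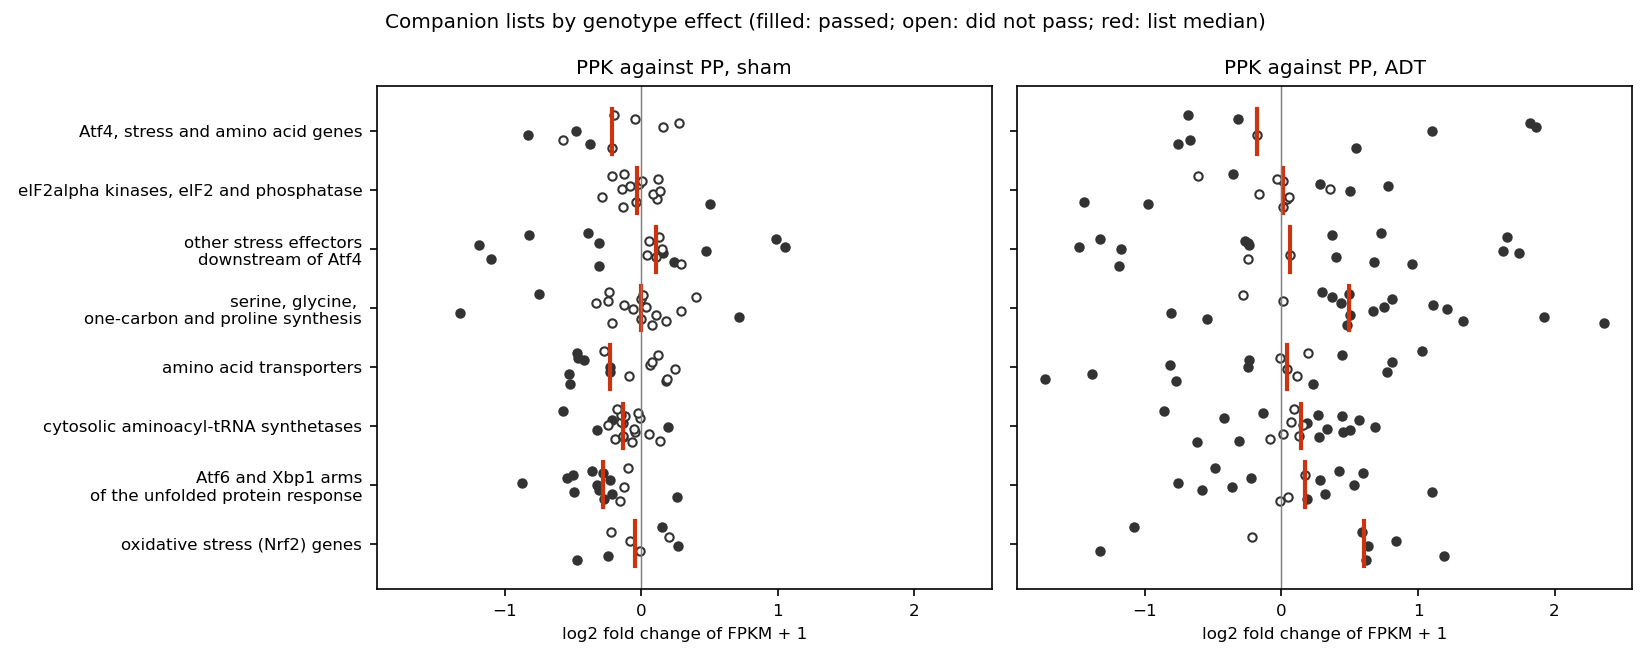
Log2 fold change of FPKM + 1 for PPK against PP in sham (left) and in ADT mice (right). Each dot is a tested gene of Atf4 with its 8 tested companions (top row) or of 1 of 7 further lists. Filled dots passed and red lines are list medians, both including the genes that are left out of the counts in the text. The serine and one-carbon list has its median at 0.00 in sham and at 0.50 in ADT mice. Without the genes left out of the counts, these medians were -0.06 and 0.49.

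Among 20 cytosolic aminoacyl-tRNA synthetases, enzymes that load amino acids onto tRNA, 1 was higher and 3 were lower in PPK sham. In ADT mice 9 were higher in PPK and 5 lower, and for ADT with age 9 fell and none rose in PP, while 10 rose and 5 fell in PPK. Of all genes 28.6% were called in PPK sham, 59.6% in PPK ADT against PP ADT, 44.2% for ADT with age in PP and 62.6% in PPK. At an unadjusted p under 0.05 from limma, 0 of them were higher in PP. Kars, for lysine, rose by 0.69 in PPK ADT over PP ADT (adjusted p = 2.75e-05), from 16.5 and 17.3 to 27.5 and 28.2 FPKM. Qars, for glutamine, rose by 0.57 (adjusted p = 3.58e-05), from 17.3 in both to 26.8 and 25.5 FPKM. Wars, for tryptophan, fell by 0.86 (adjusted p = 1.71e-05), and had its highest levels in PP sham at 27.2 and 26.0 FPKM against 6.86 and 7.37 in PPK ADT. Vars, for valine, fell by 0.14 (adjusted p = 0.00849). The 5 synthetases with the motif did not share a direction: Aars fell by 0.62 (adjusted p = 6.95e-05), Gars, Iars and Tars rose by 0.27 to 0.45, and Yars was at 0.10 (adjusted p = 0.18).

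Of 18 amino acid transporters 15 were tested. Slc7a8 passed the filter only through PPK ADT and Slc38a9 only through PPK sham, so counts are given for the other 13. In PPK sham 1 was higher and 7 were lower, and in PPK ADT against PP ADT 4 were higher and 6 lower. Of all genes 28.6% and 59.6% were called there. Slc38a2, a neutral amino acid importer known to follow amino acid supply, was 52.1 and 51.2 FPKM in PP ADT and 89.3 and 88.7 in PPK ADT, and it rose by 0.77 (adjusted p = 1.86e-06). Its relative Slc38a1 was 9.62 and 9.66 FPKM in PP sham and 0.213 and 0.225 in PPK ADT, and it fell by 1.39 from PP ADT (adjusted p = 5.17e-06). The glutamine transporter Slc1a5 was 41.1 and 40.0 against 22.5 and 24.1 FPKM in ADT mice and fell by 0.77 (adjusted p = 1.02e-05). Slc6a14, an importer of neutral and cationic amino acids, fell by 0.82 (adjusted p = 0.000223). ADT with age raised 2 of the 13 and lowered 7 in PP, and raised 3 and lowered 6 in PPK, where 44.2% and 62.6% of all genes were called.

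The Atf6 and Xbp1 arms of the unfolded protein response, which raise chaperones beside the Atf4 arm, had 15 members, all tested. In PPK sham 11 were lower and 1 was higher, with a median of -0.28 against -0.02 over all genes, of which 13.7% were called higher and 14.9% lower. In PPK ADT against PP ADT 7 were higher and 5 lower, where 59.6% of all genes were called. For ADT with age 1 rose and 11 fell in PP, and 2 rose and 10 fell in PPK, where 44.2% and 62.6% of all genes were called. Hspa5, the main chaperone of the endoplasmic reticulum, was 398 and 397 FPKM in PP sham, 274 and 272 in PPK sham, 232 and 230.5 in PP ADT, and 198 in both PPK ADT libraries. It fell by 0.54 in PPK sham (adjusted p = 1.2e-05) and by 0.23 in PPK ADT against PP ADT (adjusted p = 0.000112). Hsp90b1 fell by 0.23 in PPK sham (adjusted p = 0.00187) and rose by 0.28 in ADT mice (adjusted p = 0.000239). Creld2 did likewise, with -0.21 (adjusted p = 0.00715) and 0.32 (adjusted p = 0.000435). Calr, a calcium-binding chaperone, rose by 0.26 in PPK sham (adjusted p = 0.000624) and was at 0.05 in ADT mice (adjusted p = 0.132). Herpud1, which holds the motif shown above and acts in the disposal of misfolded protein, was 93.9 and 105.1 FPKM in PP sham and 19.2 and 19.8 in PPK ADT. It fell in PPK by 0.87 in sham mice (adjusted p = 0.000416) and by 0.75 in ADT mice (adjusted p = 0.000228).

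Among 8 oxidative stress genes commonly ascribed to Nrf2, which shares the target Slc7a11 with Atf4, Nqo1 passed the filter only through PPK ADT, so counts are given for the other 7. In PPK sham 2 were higher and 2 lower, and in PPK ADT against PP ADT 4 were higher and 2 lower. Of all genes 28.6% and 59.6% were called there. Gclc, the catalytic subunit for glutathione synthesis, was 10.9 in both PP ADT libraries and 26.3 and 25.8 FPKM in PPK ADT, a rise of 1.19 (adjusted p = 2.4e-06). Gsr, which reduces glutathione, was 43.9 and 44.1 against 69.0 FPKM in both PPK ADT libraries, a rise of 0.64 (adjusted p = 6.16e-06). G6pdx, a source of NADPH, rose by 0.62 (adjusted p = 0.000256). Txnrd1, thioredoxin reductase, fell by 1.08 (adjusted p = 1.09e-06), from 64.5 and 65.0 to 31.0 and 29.4 FPKM. For ADT with age 4 of the 7 rose and none fell in PP (0 at an unadjusted p under 0.05 from limma), and 4 rose and 1 fell in PPK, where 44.2% and 62.6% of all genes were called.

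The 5 genes whose levels were most like those of Atf4, by Pearson r of log2(FPKM + 1) over the 8 libraries among 6561 genes compared, were Tmem238l (0.995), Far1 (0.993), Slc40a1 (0.989), Lcp1 (0.988) and Rab5b (0.987). None of them is on the lists above. Far1 was 14.2 and 13.5 FPKM in PP sham, 7.99 and 9.33 in PPK sham, 13.5 and 12.9 in PP ADT, and 5.74 and 5.67 in PPK ADT. Slc40a1, the iron exporter, had the same order of group means as Atf4, from 26.9 and 24.9 FPKM in PP ADT to 2.33 and 2.49 in PPK ADT. Its PP sham and PP ADT libraries were apart, while those of Atf4 overlapped. The 8 points are 4 groups of 2 libraries, and these values describe likeness only.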

How the data were processed

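RNA of sorted prostate epithelium was sequenced in 8 libraries, 2 in each of 4 groups taken from the sample labels. Per the labels' protocols, RNA was purified with Trizol and strand-specific TruSeq libraries were made. The authors deposited 1 table of FPKM per library. FastQC 0.11.2 and the genome build mm10 are named in the submitters' processing notes. Which aligner, quantifier and annotation were used is not given in the sources. Organoid experiments, which the design text also lists, were not analysed here.

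Joining all libraries gave 55335 Ensembl identifiers. Symbols and positions for 55154 of these were taken from GENCODE M21 on GRCm38. No counts are in the tables. Steps among the lowest values put the other 7 libraries at 70.3 to 82.5% of the depth of PP sham A, from 44 to 65 genes at the step in each. The absolute depth is unknown, so no counting interval is given. FPKM is scaled to gene length and library size, and it cannot part fragments that overlapping genes share.

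The filter of at least 1 FPKM in 2 or more libraries left 14000 genes. In R 4.3.3, limma 3.58.1 was run on log2(FPKM + 1), with 1 mean for each of the 4 groups and a trend of the variance with the level (4 residual and 2.4 prior degrees of freedom). Tests were two-sided, with Benjamini-Hochberg adjustment over all tested genes and calls at 0.05. The difference of genotype effects is the interaction term. The fit was tested on simulated data. Further steps were done in Python 3.11.15 with numpy 2.4.6 and pandas 2.3.3, and matplotlib 3.10.9 drew the plots. Alternatives were a pseudocount of 0.1, no filter, a mean of at least 5 FPKM, median-of-ratios scaling, quantile normalization, no trend, only the 2 groups compared, a replicate block and each library left out.

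The genes and the companion lists were chosen with earlier results of these data known. All 10 genes are named. Up to 4 genes of each companion list with the smallest adjusted p over the 5 comparisons are named, and for likeness the 5 genes with the highest Pearson r among those with a mean of at least 5 FPKM. Shmt1, Psph, Mthfd1l, Mthfd2, Aldh1l2, Slc7a5, Slc36a1, Gclm, Eif2ak4, Ppp1r15a, Herpud1 and the synthetases with the motif were named after their values were seen. Promoters and their sequences came from RefSeq (GRCm38.p6). A detail of the shared genotype is not reported here.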

Additional observations from a re-analysis of the deposited data

Results flagged for a closer look

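The effect of the PPK genotype differed between sham and ADT mice for 6 of the 9 tested genes and for 52.8% of all genes. These calls are from a test of the difference itself (limma, adjusted p under 0.05). On the log2 scale, ADT minus sham, that difference was 1.70 for Psat1, 1.58 for Phgdh, 1.54 for Shmt2, 0.76 for Asns, 0.65 for Ddit3 and -0.38 for Atf4. For Phgdh the genotype effect turned from -0.47 in sham to 1.10 in ADT mice, with both called. For Atf4 both effects were negative, -0.38 and -0.76. For Ddit3 the effect was called in sham mice alone, and its difference was no longer called without any one of the sham or PPK ADT libraries (adjusted p from 0.0508 to 0.0904). The basal markers Krt5, Krt14 and Trp63 also stood high in PPK ADT, and their part in these differences was not tested.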

How the results depend on the processing

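Of 28 called single-gene effects, 20 passed under each alternative run, 8 were lost under at least 1 and none turned direction. Of 17 uncalled effects 7 passed under at least 1 alternative and 9 turned direction. In ADT with age in PP, Slc3a2 turned to 0.0391 with median-of-ratios scaling and Atf4 to -0.0185 with quantile normalization. Where a library was left out, its group kept 1 library, which was assumed to vary like the other groups. With each library left out in turn, the uncalled values that turned ran as follows. In PPK sham against PP sham, Psat1 ran from -0.0818 to 0.3991 and Slc3a2 from -0.1729 to 0.0868. In PPK ADT against PP ADT, Ddit3 ran from -0.3931 to 0.0365. For ADT with age in PP, Atf4 ran from -0.072 to 0.0775, Trib3 from -0.3791 to 0.0602, Shmt2 from -0.1658 to 0.0159 and Slc3a2 from -0.1686 to 0.0912. For ADT with age in PPK, Phgdh ran from -0.0089 to 0.0893. For the difference of effects, Chac1 ran from -0.4923 to 0.2896.

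Of the genes studied, 1 was called higher in PPK sham with a mean of at least 5 FPKM, with quantile normalization and with the replicate block by the letters A and B, where the main count was 0. Without a filter 2 were lower in PPK ADT against PP ADT. With a mean of at least 5 FPKM, which left Trib3, Chac1 and Psat1 untested, 2 were lower there. Under that filter 1 was higher and 3 lower for ADT with age in PPK. With a library left out, those counts ran from 0 to 1 (higher, PPK sham), 2 to 3 (lower, PPK ADT against PP ADT, with 4 in all libraries), 2 to 5 (lower, ADT with age in PPK) and 1 to 2 (negative difference of effects). A mean of at least 5 FPKM left fewer genes to test: 2481 were higher and 2437 lower in PPK ADT against PP ADT, 2136 were lower for ADT with age in PP, 2528 were higher and 2528 lower for ADT with age in PPK, and the difference of effects was positive for 2363 and negative for 2113. Genes called lower in PPK sham numbered between 1276 and 1971 with a library left out.

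The labels do not say whether the letters A and B pair libraries. A minus B differences correlated between groups at -0.01 to 0.06, so no strong shift was shared by letter. These values cannot exclude a pairing. The block changed no other call of the studied genes but Chac1 in ADT mice (adjusted p = 0.0578) and Shmt2 in sham mice (adjusted p = 0.039). No scaling moved the median of all genes by more than 0.1. Low genes such as Trib3, Chac1 and Slc7a11 are limited by an unknown depth and by 2 libraries a group.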

Other observations

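Libraries A and B of PP ADT differed in Chac1, Ppp1r15a, Ddit3 and Trib3 by more than the median gene, while Atf3, Eif2ak3 and Hspa5 were close (927 and 918, 72.7 and 69.9, and 232 and 230.5 FPKM). These genes were chosen after their values were seen. Chac1 was higher in A (2.42 against 0.989 FPKM, 0.78 on the log2 scale), and 1.8% of tested genes differed by at least as much between these libraries. Ppp1r15a, the stress-inducible subunit of the eIF2alpha phosphatase, was also higher in A (164.1 against 90.6 FPKM, 0.85 on the log2 scale, reached by 1.5% of genes). Ddit3 and Trib3 were higher in B instead, by 0.43 and 0.44. Atf4 itself differed by 0.15, and the median over all tested genes was 0.09. Ppp1r15a passed in no comparison of groups. Such gaps were not confined to PP ADT. Psat1 differed by 0.29 in PP ADT and by 0.48 in PP sham. Slc36a1, an amino acid transporter, differed by 1.41 in PP sham and 1.47 in PPK sham, and Gclm, an Nrf2 gene, by 1.46 in PP sham.

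The mean z-score of the 10 genes over the 8 libraries was most like Anp32a (Pearson r 0.986), Fosb (0.986), Cc2d1b (0.984), Selenok (0.984) and Ptgr1 (0.982), as a description over 4 groups of 2 libraries. That mean joins genes that were highest in PPK ADT, such as Psat1 and Shmt2, with genes that were lowest there, such as Atf4 and Chac1. It also includes Slc7a11, which was under the filter. Fosb, an immediate early transcription factor, was 331.6 and 322.3 FPKM in PP sham, 250.3 and 249.1 in PPK sham, 230 and 233.8 in PP ADT, and 221.8 and 214.8 in PPK ADT. The ratio of Ddit3 to Atf4 levels was 0.196 and 0.181 in PP sham, 0.143 and 0.124 in PPK sham, 0.0612 and 0.0949 in PP ADT, and 0.108 and 0.118 in PPK ADT, so it was highest in PP sham.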
